A study of Mus musculus with 6 samples.

Results

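Matrix metalloproteinases (Mmps) and their tissue inhibitors (Timps) were followed by bulk RNA-seq in tail tendons of WT and Mkx-/- mice. There were 3 libraries per group. The members were the 10 rows of the count table, out of 44788 gene symbols, named *Mmp2*, *Mmp3*, *Mmp11*, *Mmp13*, *Mmp14*, *Mmp16*, *Mmp19*, *Timp1*, *Timp2* and *Timp3*. All 10 were found, and all 10 had enough counts to be tested. Both groups were C57BL/6 mice, 3 weeks of age by the sample labels (the text of the study gives a later age), and they differed by the loss of *Mkx* (Mohawk), a transcription factor of tendon cells.

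Mmps are zinc-dependent proteases that cut collagens and other matrix proteins. They are made as inactive precursors, and some are released into the matrix while others are anchored in the cell membrane. Timps bind the active site of Mmps and block it. At the cell surface *Timp2* also bridges the membrane-anchored *Mmp14* and the precursor of *Mmp2*, a step by which *Mmp2* is activated. In tendon, a tissue made mainly of type I collagen, these enzymes take part in growth and remodelling of the fibrils.

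The libraries held 10835070 to 14160301 counts, and 1 count was worth 0.0703 to 0.0981 CPM after scaling with edgeR's TMM normalization. *Mkx* itself was counted 1825, 1381 and 1685 times in WT and 620, 589 and 491 times in Mkx-/- libraries, so it was lower in every library with that label although reads remained (log2 fold change -1.60, edgeR adjusted p = 0.00183). *Ddx3y*, a Y-linked gene, was counted 301 times in the third WT replicate and 0 times elsewhere, so that 1 WT library stood apart in sex. The tendon markers *Tnmd* and *Col1a1* were abundant in all libraries, with at least 11572 and 1275486 counts. *Scx* had 220 to 666 counts in WT and 190 to 221 in Mkx-/- libraries. Together *Col1a1*, *Col1a2* and *Sparc* made up 42.0% to 48.5% of all counts in WT and 28.3% to 34.8% in Mkx-/- libraries. Bulk RNA-seq cannot tell apart a change in the number of cells of a type and a change in RNA per cell.

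Levels of different genes were compared as normalized CPM per kb of merged exons, since longer transcripts give more reads. In WT tendons *Timp2* was the most abundant member at 373 ± 77.9 CPM per kb (SD, n = 3), and it made up 56.9% ± 6.91 of the summed level of the 10 genes. *Mmp14* at 105 ± 13.5 CPM per kb and *Mmp2* at 99.8 ± 8.03 CPM per kb followed (SD, n = 3 each), and the ranges of this pair overlapped. *Timp1* at 53.0 ± 17.9, *Timp3* at 13.2 ± 0.842 and *Mmp11* at 4.37 ± 1.23 CPM per kb came next (SD, n = 3 each), with no overlap between neighbours. *Mmp3*, *Mmp19*, *Mmp16* and *Mmp13* had the lowest levels, from 1.09 down to 0.390 CPM per kb.

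In Mkx-/- tendons *Timp2* still had the highest level, 376 ± 37.4 CPM per kb (SD, n = 3). *Mmp2*, at 216 ± 16.1 CPM per kb, lay above *Mmp14*, at 125 ± 14.1 CPM per kb (SD, n = 3 each), and the ranges of this pair no longer overlapped. The share of *Mmp2* in the summed level was 27.2% ± 1.23, against 15.4% ± 1.37 in WT, and that of *Timp2* was 47.2% ± 2.75 (SD, n = 3 each). *Mmp19*, *Mmp16*, *Mmp3* and *Mmp13* had the lowest levels in this group too, and each of them overlapped its neighbour in this order. The exon lengths come from the GENCODE annotation of mm9, which may differ from the one the reads were counted on.

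**Figure D1:**
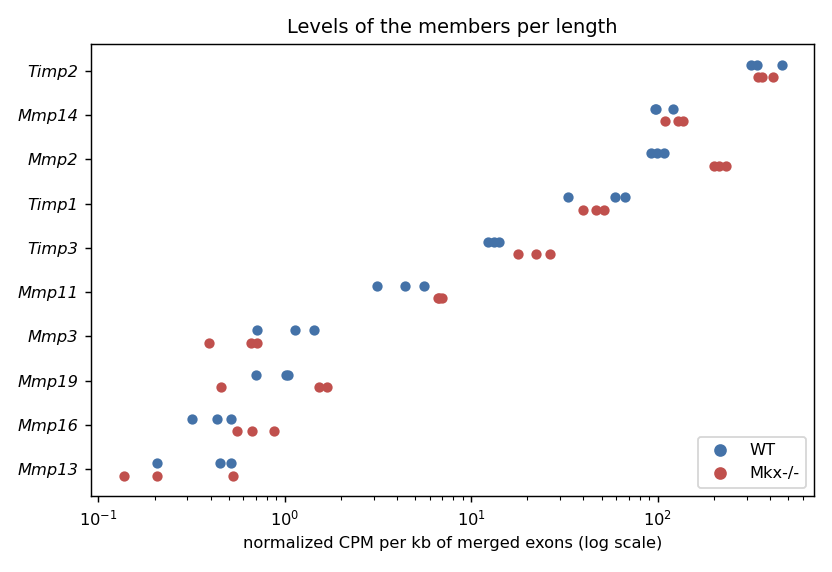
Each point is 1 library, with its level in normalized CPM per kb of merged exons on a log axis, for the 10 members ordered by their WT mean (blue, WT; red, Mkx-/-). *Timp2* lies at the top in both groups, and the red points of *Mmp2* lie to the right of the blue ones and of both groups of *Mmp14*.

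Of the 4 members with the lowest levels, *Mmp3* and *Mmp13* lay near each other on chromosome 9, and *Mmp16* and *Mmp19* on chromosomes 4 and 10. *Mmp13* (chr9:7272514-7283333, plus strand, mm9) and *Mmp3* (chr9:7445822-7455972, plus strand) belong to a run of 10 Mmp genes between 7272514 and 7699585 on chromosome 9. The highest count of any gene of this run in any library was 32, in *Mmp3*, and the other 8 genes of the run had at most 12. Among the 7 members with an entry in the RefSeq promoter table (build GRCm38.p6), *Mmp3* and *Mmp13* were the ones whose 250 bases before the start held an AP-1 motif (TGANTCA, either strand) and a TATA box (TATAAA, gene strand). Of all 32536 windows of this length in the table, 6.73% held the first and 7.55% the second. *Mmp2*, *Mmp16* and *Mmp19* had no entry.

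The promoter windows of the pair are shown beside those of *Timp3*, which was higher in Mkx-/- tendons, and of the abundant *Mmp14*, to show how their letters differ. They are written 5′ to 3′ on the strand of the gene, and capitals mark the AP-1 motif and the TATA box. The windows are chr9:7445572-7445821 (plus strand) for *Mmp3*, chr9:7272264-7272513 (plus strand) for *Mmp13*, chr10:86300162-86300411 (plus strand) for *Timp3* and chr14:54431348-54431597 (plus strand) for *Mmp14*, all in GRCm38.p6.
Mmp3: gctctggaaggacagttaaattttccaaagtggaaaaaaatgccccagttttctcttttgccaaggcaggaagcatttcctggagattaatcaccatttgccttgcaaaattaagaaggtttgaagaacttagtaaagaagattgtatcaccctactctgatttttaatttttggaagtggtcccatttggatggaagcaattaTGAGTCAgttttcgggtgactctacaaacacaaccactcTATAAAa
Mmp13: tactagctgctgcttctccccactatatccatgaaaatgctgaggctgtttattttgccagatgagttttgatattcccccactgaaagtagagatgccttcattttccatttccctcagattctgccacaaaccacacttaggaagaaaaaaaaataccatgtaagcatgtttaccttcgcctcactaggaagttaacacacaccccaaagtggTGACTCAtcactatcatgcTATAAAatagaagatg
Timp3: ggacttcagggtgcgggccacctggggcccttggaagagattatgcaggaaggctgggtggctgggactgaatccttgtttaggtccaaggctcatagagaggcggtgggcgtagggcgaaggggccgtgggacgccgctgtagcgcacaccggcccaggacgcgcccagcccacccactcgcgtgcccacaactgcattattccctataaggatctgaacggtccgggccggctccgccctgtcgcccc
Mmp14: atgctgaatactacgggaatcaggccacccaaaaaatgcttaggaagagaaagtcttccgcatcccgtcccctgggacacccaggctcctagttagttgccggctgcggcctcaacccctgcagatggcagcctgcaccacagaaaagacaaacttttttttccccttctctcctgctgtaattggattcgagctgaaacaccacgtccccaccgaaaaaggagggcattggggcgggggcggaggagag

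In *Mmp3* the AP-1 motif began 46 bases and the TATA box 7 bases before the annotated start, and in *Mmp13* they began 35 and 16 bases before it. Each of these windows held 1 CpG, while those of *Mmp14*, *Mmp11*, *Timp3* and *Timp2* held 10, 14, 18 and 21, and that of *Timp1* held 6, where the median of all windows was 6. The GC box (GGGCGG, either strand), found in 33.0% of all windows, was present in *Mmp11*, *Mmp14*, *Timp1*, *Timp2* and *Timp3*, and absent from *Mmp3* and *Mmp13*. The RUNX core (TGTGGT, either strand), found in 4543 of the 32536 windows, was present in *Mmp13* and *Mmp14*. Across the run on chromosome 9, 7 of 10 genes had an AP-1 motif and a TATA box in the same window, against 0 of the 12 other Mmp and Timp genes with an entry. A match of letters is a description and was not tested as a binding site.

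To ask how loss of *Mkx* changed these genes, the groups were compared over all 14550 genes with enough counts, using the quasi-likelihood test of edgeR, with p-values adjusted by the Benjamini-Hochberg method. *Mmp2* and *Timp3* were upregulated in Mkx-/- tendons, and the other 8 members did not pass the threshold of an adjusted p under 0.05. Thus 2 of 10 members rose, where 3.18% of all tested genes rose, and 0 of 10 fell, where 2.26% of all tested genes fell (5.44% in either direction). By DESeq2 the same 2 genes rose and 0 fell. At an unadjusted p under 0.05 in edgeR, 4 members were higher and 1 was lower (12.5% and 10.1% of all tested genes). The groups did not overlap in 5 of 10 members, against 28.2% of all tested genes. The median log2 fold change of the members was 0.33, and that of all tested genes was -0.0037. In all, 463 genes were higher and 329 lower, or 1358 and 197 when libraries were scaled by their totals alone.

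**Figure D2:**
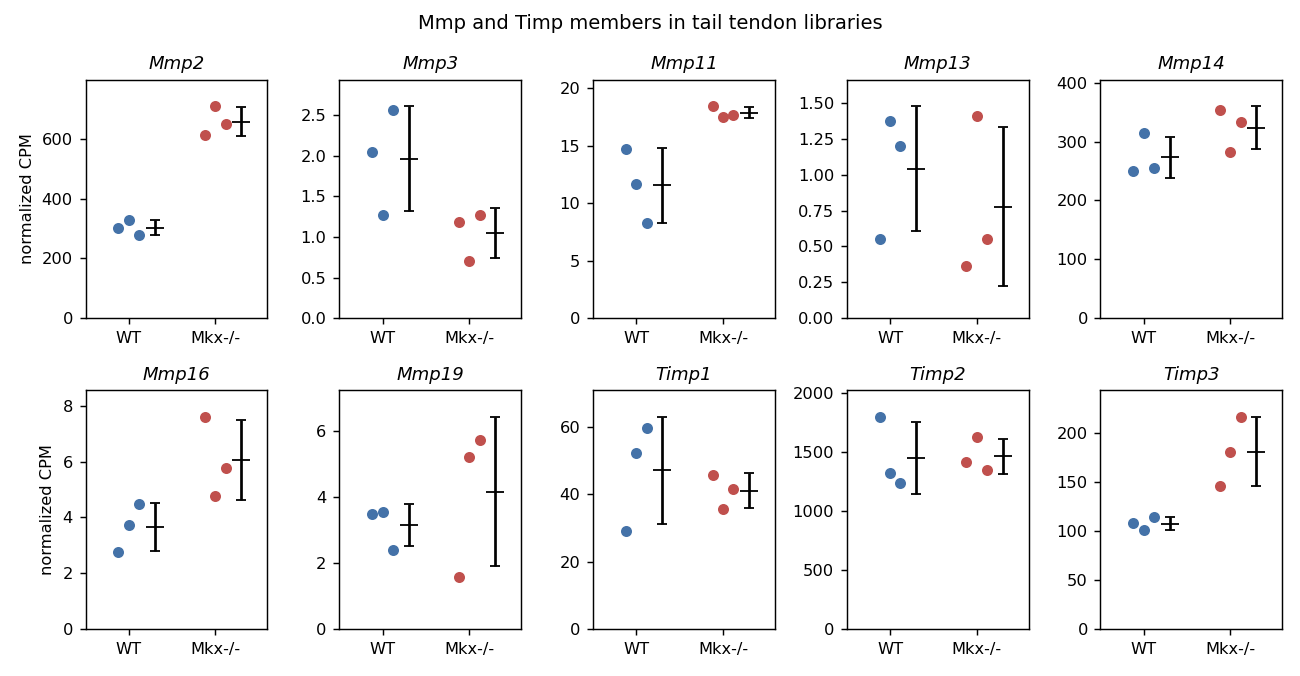
Normalized CPM of the 10 members in each library, 1 panel per gene with its own axis from 0 (blue, WT; red, Mkx-/-), and the mean with SD of 3 libraries in black beside the points. In *Mmp2* and *Timp3* every red point lies above every blue point, and in *Mmp13*, *Mmp14*, *Mmp19*, *Timp1* and *Timp2* the groups overlap.

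*Mmp2* (chr8:95351227-95377316, plus strand, mm9), a secreted protease that cuts denatured collagen and basement membrane collagen, had the largest increase among the members. It had 3836, 3342 and 3486 counts in the WT libraries, or 302, 328 and 279 normalized CPM. In the Mkx-/- libraries it had 6677, 10092 and 8214 counts, or 612, 709 and 651 normalized CPM. All 3 Mkx-/- libraries lay above all 3 WT libraries, and the spread within each group was small beside the gap. The group means were 303 ± 24.4 and 657 ± 49.0 CPM (SD, n = 3 each). The 2.17-fold increase was a log2 fold change of 1.12, with a 95% interval of 0.81 to 1.42 and an adjusted p of 0.00380 by edgeR. It was past the threshold in all 14 alternatives run, and it was the 1 member whose log2 fold change exceeded 1 with an adjusted p under 0.05, as 1.89% of all tested genes did in this direction. No member was below -1, where 1.33% of all tested genes were.

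*Timp3* (chr10:85763117-85812251, plus strand, mm9) encodes an inhibitor that stays bound to the matrix and also blocks Adam and Adamts proteases. It had 1370, 1025 and 1427 counts in WT and 1588, 2573 and 2730 counts in Mkx-/- libraries. Its levels were 108, 101 and 114 normalized CPM in WT and 145, 181 and 216 normalized CPM in Mkx-/- tendons. The groups did not overlap, and the Mkx-/- libraries were more spread than the WT libraries. The 1.68-fold increase was a log2 fold change of 0.75, with a 95% interval of 0.38 to 1.12 and an adjusted p of 0.0362 by edgeR. The adjusted p of *Timp3* was 0.124 without WT replicate 2, 0.101 without WT replicate 3, 0.1001 without Mkx-/- replicate 2 and 0.113 without Mkx-/- replicate 3, while its log2 fold change stayed between 0.60 and 0.78 in these 4 fits. DESeq2 gave an adjusted p of 0.000898. Exons of *Syn3* on the opposite strand cover 1733 bases of *Timp3* exons, but *Syn3* had 10 to 19 counts per library.

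The other Timps did not pass the threshold. *Timp2* (chr11:118162383-118217054, minus strand, mm9) had 1800, 1322 and 1237 normalized CPM in WT and 1420, 1628 and 1348 normalized CPM in Mkx-/- libraries. The groups overlapped, and the 95% interval of its log2 fold change ran from -0.41 to 0.43 (edgeR adjusted p = 0.981). *Timp1* (chrX:20447292-20451861, plus strand, mm9), a secreted inhibitor, had 29.2, 52.3 and 59.7 normalized CPM in WT and 45.8, 35.5 and 41.7 normalized CPM in Mkx-/- libraries. Here too the groups overlapped, with the lowest and the highest library both WT (95% interval of the log2 fold change -0.76 to 0.36, edgeR adjusted p = 0.686). The highest was WT replicate 3, the library that stood apart in sex. The log2 fold change of *Timp1* was -0.20 with all libraries, -0.0082 without WT replicate 3 and -0.45 without WT replicate 1. The part of sex in it was not tested.

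The membrane-anchored members were *Mmp14* and *Mmp16*. *Mmp14* (chr14:55050441-55060095, plus strand, mm9), a collagenase of the cell surface, had 251, 314 and 256 normalized CPM in WT and 354, 283 and 333 normalized CPM in Mkx-/- libraries. Its groups overlapped, and the 95% interval of its log2 fold change was -0.10 to 0.58 (edgeR adjusted p = 0.383). *Mmp16* (chr4:17780040-18046292, plus strand, mm9) was rare, with 35, 38 and 56 counts in WT and 83, 68 and 73 counts in Mkx-/- libraries. Every Mkx-/- library lay above every WT library in normalized CPM, the log2 fold change was 0.72 (95% interval 0.12 to 1.32), and the adjusted p was 0.149 by edgeR. With libraries scaled by their totals alone the adjusted p of *Mmp16* was 0.0377, the 1 of 14 alternatives in which it passed. Its highest adjusted p was 0.361 by edgeR, without Mkx-/- replicate 1.

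Among the secreted members with fewer counts, *Mmp11* (chr10:75385967-75400678, minus strand, mm9), which is activated inside the cell by furin, had 14.7, 11.7 and 8.25 normalized CPM in WT and 18.4, 17.5 and 17.7 normalized CPM in Mkx-/- libraries. The 3 Mkx-/- libraries were close together and above the WT libraries. Its log2 fold change was 0.63 (95% interval 0.16 to 1.09, edgeR adjusted p = 0.112). *Mmp11* passed in 1 of 14 alternatives, without WT replicate 1 (edgeR adjusted p = 0.0289). Its highest adjusted p was 0.242 by edgeR, without Mkx-/- replicate 3. *Mmp3*, a protease of broad range that also activates other Mmps, had 26, 13 and 32 counts in WT and 13, 10 and 16 counts in Mkx-/- libraries. After scaling, every Mkx-/- library lay below every WT library, by a small margin (1.28 against 1.27 normalized CPM at the nearest). Its log2 fold change was -0.92 (95% interval -1.79 to -0.04, edgeR adjusted p = 0.202).

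*Mmp13*, a collagenase of cartilage and bone, was counted 7, 14 and 15 times in WT and 4, 20 and 7 times in Mkx-/- libraries. The groups overlapped, and the 95% interval of its log2 fold change, -1.65 to 0.93, shows how little these counts could resolve (edgeR adjusted p = 0.756). *Mmp19* (chr10:128228009-128237880, plus strand, mm9), a secreted protease, had 3.47, 3.53 and 2.40 normalized CPM in WT and 1.56, 5.199 and 5.71 normalized CPM in Mkx-/- libraries. Mkx-/- replicate 1 was the lowest library and the other Mkx-/- libraries were the highest (edgeR adjusted p = 0.617). Exons of another gene on the opposite strand cover 789 bases of *Mmp19* exons, and reads of that gene cannot be told apart where counting ignores strand.

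**Figure D3:**
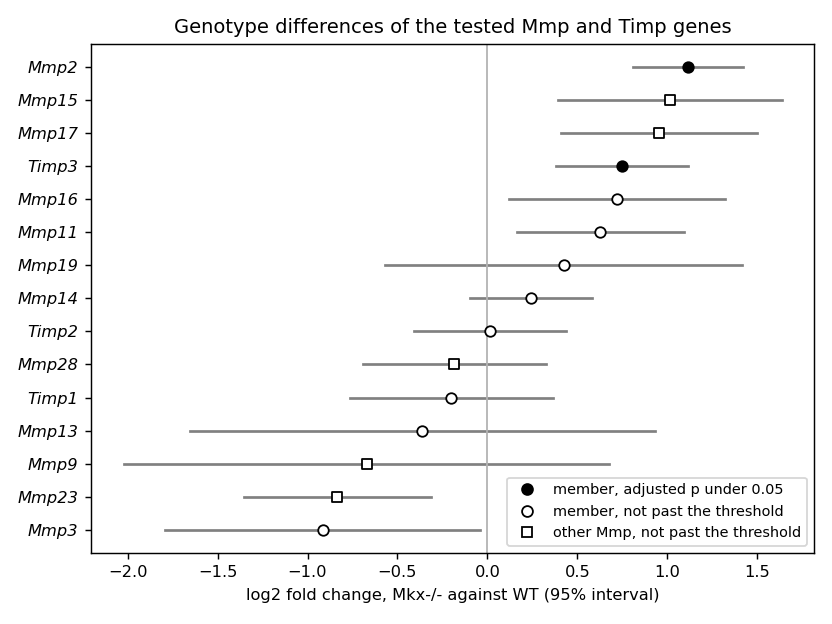
Log2 fold change of Mkx-/- against WT with its 95% interval (edgeR) for the 10 members (circles) and the 5 other Mmp genes with enough counts (squares), filled where the adjusted p was under 0.05. The filled points are *Mmp2* and *Timp3*, and the intervals of *Mmp13*, *Mmp9* and *Mmp19* are the widest.

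Ratios of members within a library do not depend on the scaling between libraries, so they were compared next, per length. The ratio of *Mmp2* to its inhibitor and partner *Timp2* was 0.215, 0.318 and 0.290 in WT and 0.552, 0.558 and 0.620 in Mkx-/- libraries. The groups were apart, with a 2.13-fold higher ratio in Mkx-/- tendons (two-sided exact permutation test, p = 0.1, the smallest that 3 against 3 libraries can give, and 0.2 adjusted over the 6 ratios). The ratio of *Mmp2* to *Mmp14* was 1.03, 0.894 and 0.933 in WT and 1.48, 2.14 and 1.67 in Mkx-/- libraries (exact permutation test, p = 0.1, adjusted 0.2). The groups were apart here as well.

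The ratio of *Mmp14* to *Timp2* overlapped between the groups, with 0.209, 0.356 and 0.310 in WT and 0.374, 0.261 and 0.371 in Mkx-/- libraries (exact permutation test, p = 0.5, adjusted 0.6). The summed level of the 7 Mmps was 0.402, 0.575 and 0.493 of that of the 3 Timps in WT and 0.800, 0.733 and 0.840 of it in Mkx-/- libraries (exact permutation test, p = 0.1, adjusted 0.2). The summed Mmp level was 212 ± 20.8 CPM per kb in WT and 350 ± 3.12 CPM per kb in Mkx-/- tendons (SD, n = 3 each). Of these sums, *Mmp2* alone made up 99.8 and 216 CPM per kb. *Mmp23*, which is not among the 7 Mmps, was at 72.5 CPM per kb in WT and 40.7 in Mkx-/- tendons. The summed Timp level was 439 ± 60.1 and 444 ± 31.7 CPM per kb (SD, n = 3 each). *Mmp13* and *Mmp3* set against *Timp1* overlapped between the groups (exact permutation test, p = 0.7 and 0.3, adjusted 0.7 and 0.45).

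**Figure D4:**
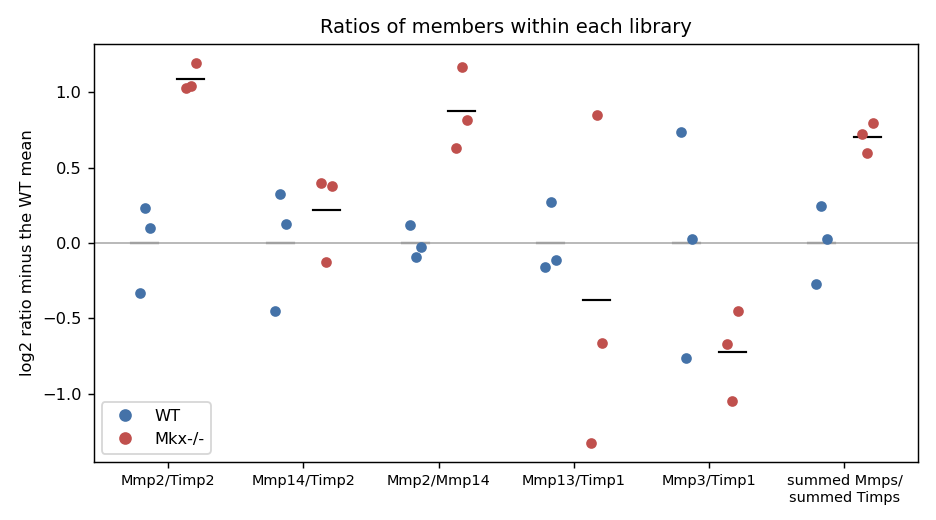
Log2 ratio of per-length levels within each library minus the WT mean, for the 6 ratios compared (blue, WT; red, Mkx-/-; black lines, group means). The groups are apart for *Mmp2*/*Timp2*, *Mmp2*/*Mmp14* and the summed Mmps over the summed Timps, and overlap for the other 3.

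Of the 17 remaining Mmp and Timp genes, 5 had enough counts to be tested. In edgeR 0 of these passed the threshold, where 5.44% of all tested genes did. At an unadjusted p under 0.05, 2 were higher and 1 was lower, against 12.5% and 10.1% of all tested genes. *Mmp23* and *Mmp15* were the most abundant of the 17, at 72.5 ± 17.2 and 10.4 ± 1.65 CPM per kb in WT tendons (SD, n = 3 each). *Mmp15*, a membrane-anchored Mmp, had 37.4, 46.5 and 51.6 normalized CPM in WT and 54.8, 96.7 and 122 normalized CPM in Mkx-/- libraries. *Mmp17*, also anchored in the membrane, had 6.22, 4.71 and 3.85 normalized CPM in WT and 7.42, 9.98 and 11.3 normalized CPM in Mkx-/- libraries. *Mmp23* had 126, 206 and 177 normalized CPM in WT and 120, 73.1 and 92.7 normalized CPM in Mkx-/- libraries.

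In each of these 3 genes the groups did not overlap, with the Mkx-/- libraries above the WT libraries in *Mmp15* and *Mmp17* and below them in *Mmp23*. Their log2 fold changes were 1.01, 0.95 and -0.83. By edgeR they had adjusted p of 0.0708, 0.0584 and 0.0734, and by DESeq2 of 0.00463, 0.0222 and 0.00783, and DESeq2 was run on all genes without the filter on low counts. With edgeR and a filter of only 1 count in any library, *Mmp15*, *Mmp17* and *Mmp23* also passed, with adjusted p of 0.00426, 0.0143 and 0.0106. With the usual filter it was 0.0174 for *Mmp15* without Mkx-/- replicate 1, and 0.0259 for *Mmp17* and 0.0222 for *Mmp23* without WT replicate 1. Over all 14 alternatives *Mmp15* passed in 5, *Mmp17* in 4 and *Mmp23* in 3. Their highest adjusted p by edgeR were 0.203, 0.183 and 0.205, each without Mkx-/- replicate 3. *Mmp28* had an adjusted p of 0.679.

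*Mmp9*, the other gelatinase, had 73, 31 and 33 counts in WT and 8, 67 and 20 counts in Mkx-/- libraries, and its groups overlapped (edgeR adjusted p = 0.550). *Mmp8*, a collagenase known from neutrophils, was counted 12, 1 and 0 times in WT and 4, 9 and 0 times in Mkx-/- libraries, too few to test. Both were highest in WT replicate 1 and Mkx-/- replicate 2. The summed level of 7 neutrophil markers was 22.6, 3.34 and 1.68 normalized CPM in WT and 0.550, 32.1 and 0.872 normalized CPM in Mkx-/- libraries, highest in the same 2 libraries. Its part in the *Mmp8* and *Mmp9* counts was not tested. *Mmp1a*, *Mmp1b*, *Mmp20* and *Mmp21* had 0 counts in every library, which allows up to 0.211 to 0.294 CPM per library (3 counts, counting error only).

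Of 14 genes for activation and cell surface partners of Mmps, 4 rose, 0 fell and 10 did not pass the threshold in edgeR. Over all tested genes, 3.18% rose and 2.26% fell. By the unadjusted p, 7 were higher and 1 was lower, against 12.5% and 10.1% of all tested genes. The median log2 fold change of the 14 genes was 0.54. *Pcsk5* and *Pcsk6* encode proprotein convertases, which cut precursor proteins into their active form. *Pcsk5* had 31.4, 31.9 and 25.6 normalized CPM in WT and 130, 98.5 and 109 normalized CPM in Mkx-/- libraries, and its log2 fold change was 1.93 ± 0.15 (standard error) with an adjusted p of 0.000878 by edgeR. *Pcsk6* had 200, 188 and 178 normalized CPM in WT and 311, 292 and 312 normalized CPM in Mkx-/- libraries, and its log2 fold change was 0.69 ± 0.12 (standard error) with an adjusted p of 0.0165 by edgeR. In both genes the groups were apart. *Furin*, the best known convertase, stood at -0.36 on the log2 scale and *Pcsk7* at 0.15 (adjusted p of 0.230 and 0.512 by edgeR).

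*Cd44*, a hyaluronan receptor that holds Mmps at the cell surface, and *Cd9*, a tetraspanin, also rose, by 1.47 and 0.92 on the log2 scale, with adjusted p of 0.0122 and 0.0102 by edgeR. Without WT replicate 2 the adjusted p was 0.0624 for *Cd44*, 0.0576 for *Cd9* and 0.0716 for *Pcsk6*. For *Pcsk6* it was also above the threshold without WT replicate 3 (0.0854), Mkx-/- replicate 2 (0.0531) and Mkx-/- replicate 3 (0.0634).

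Of 14 tested genes of a list for clearance and other inhibitors, 1 rose, 2 fell and 11 did not pass the threshold. A place on this list does not make a gene an Mmp inhibitor, and effects on Mmp activity were not tested. The shares over all tested genes were 3.18% that rose and 2.26% that fell. The median log2 fold change of these 14 genes was -0.061. *Thbs2*, a matrix protein that binds *Mmp2* for uptake by cells, had 935, 993 and 1058 normalized CPM in WT and 2813, 1864 and 2017 normalized CPM in Mkx-/- libraries. Its groups were apart, and its log2 fold change was 1.16. The adjusted p was 0.0143 by edgeR, with 0.0708 when WT replicate 2 and 0.0657 when WT replicate 3 was left out. *Spock2*, a testican proteoglycan, had 367, 292 and 266 normalized CPM in WT and 82.6, 88.7 and 62.2 normalized CPM in Mkx-/- libraries, and its log2 fold change was -1.98 ± 0.19 (standard error) with an adjusted p of 0.00141 by edgeR. The Mkx-/- libraries of *Spock2* lay far below the WT libraries.

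*Spock3*, its relative, had a log2 fold change of -2.11 and fell as well (adjusted p of 0.0349 by edgeR, but 0.103 without WT replicate 2, 0.117 without WT replicate 3, 0.0572 without Mkx-/- replicate 1 and 0.112 without Mkx-/- replicate 2). The uptake receptor *Lrp1* and the membrane-bound inhibitor *Reck* did not pass the threshold, at -0.31 and 0.38 on the log2 scale (adjusted p of 0.285 and 0.140 by edgeR).

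Of 12 cathepsin and collagen uptake genes, 0 passed the threshold in edgeR, where 5.44% of all tested genes did. At an unadjusted p under 0.05, 1 was higher and 4 were lower, against 12.5% and 10.1% of all tested genes. The most abundant of the 12 were *Cst3*, an inhibitor of cathepsins, and *Ctsb*, at 0.29 and 0.13 on the log2 scale (adjusted p of 0.338 and 0.570 by edgeR).

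**Figure D5:**
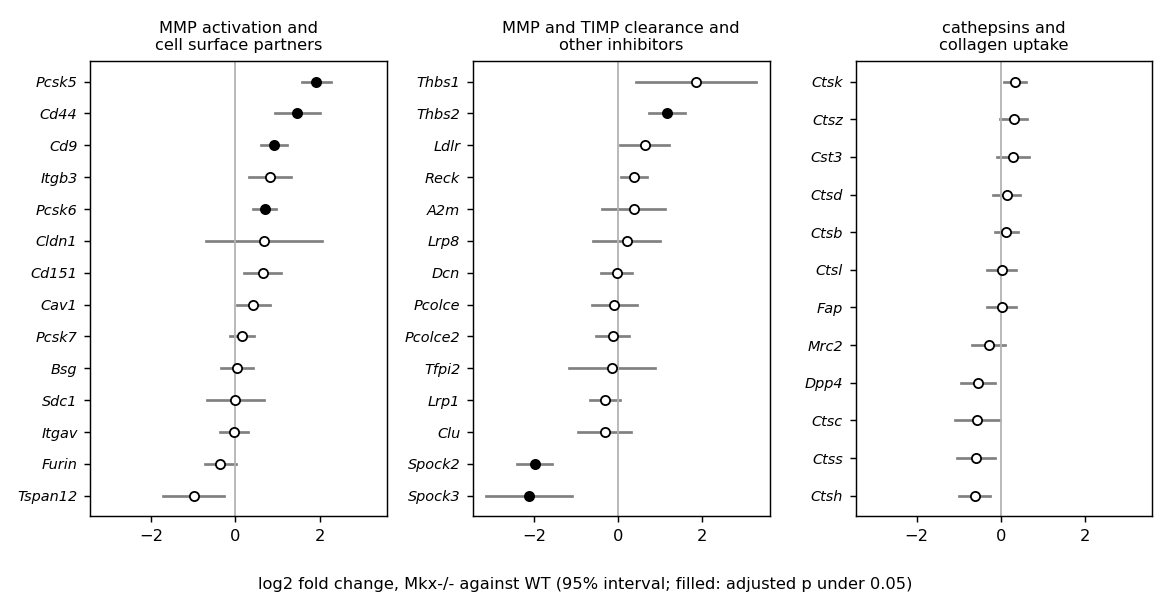
Log2 fold change of Mkx-/- against WT with its 95% interval (edgeR) for the tested genes of 3 lists, filled where the adjusted p was under 0.05. *Pcsk5*, *Cd44*, *Cd9*, *Pcsk6* and *Thbs2* lie to the right, *Spock2* and *Spock3* to the left, and no gene of the cathepsin list is filled.

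Markers of other cell types also differed between the libraries. The summed level of 5 Schwann cell markers was 5398, 7292 and 7505 normalized CPM in WT and 8797, 14268 and 16538 normalized CPM in Mkx-/- libraries. The Mkx-/- libraries had the same order in *Timp3*, *Mmp15*, *Mmp17*, *Mmp19* and *Mmp28* as in this sum and in the endothelial sum below. How often other genes share this order was not tested. In the WT libraries *Mmp15* had the order of the Schwann sum, while *Timp3*, *Mmp17*, *Mmp19* and *Mmp28* did not. The sum of 9 endothelial markers was 57.9 to 76.2 normalized CPM in WT and 71.1, 80.0 and 132 normalized CPM in Mkx-/- libraries. That of 9 skeletal muscle markers was 94.9 to 345 normalized CPM in WT and 473 to 2389 normalized CPM in Mkx-/- libraries. That of 9 macrophage and leukocyte markers (of 10 listed) was 528 to 557 normalized CPM in WT and 330 to 354 normalized CPM in Mkx-/- libraries. At the tested threshold, 0 of 5 Schwann cell markers, 0 of 9 endothelial markers and 2 of 9 skeletal muscle markers rose. In the macrophage and leukocyte list 2 of 9 markers fell. Over all tested genes, 3.18% rose and 2.26% fell. Of 5 tested chondrocyte markers 2 rose, *Acan* by 4.59-fold and *Matn3* by 2.74-fold (adjusted p of 0.00380 and 0.00181 by edgeR). *Col2a1*, the most abundant marker of that list, *Hapln1* and *Col10a1* did not pass. They stood at 0.94-fold, 0.86-fold and 1.11-fold (adjusted p of 0.905, 0.737 and 0.895 by edgeR). The summed level of that list was 537 to 1069 normalized CPM in WT and 743 to 1239 normalized CPM in Mkx-/- libraries.

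The sum of 6 pericyte and smooth muscle markers was 178 to 214 normalized CPM in 5 libraries and 935 in Mkx-/- replicate 3. The level of *Mmp2* in that library, 651 normalized CPM, lay between those of the other Mkx-/- replicates. The log2 fold change of *Mmp2* without that library was 1.12. Of the osteoclast markers, *Acp5* rose from 51 to 59 counts in WT to 235 to 362 counts in Mkx-/- libraries (log2 fold change 2.24, edgeR adjusted p = 0.000463), while *Calcr* was at 0 in every library and *Dcstamp* and *Ocstamp* had at most 9 and 6 counts. *Ctsk*, the most abundant marker of that list, had 141 to 160 normalized CPM in WT and 190 to 196 in Mkx-/- libraries. Its groups were apart, but it did not pass (log2 fold change 0.33, edgeR adjusted p = 0.135). The part of these cell types in the levels of the members was not tested.

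The genes whose log2 CPM followed *Mmp2* most closely over the 6 libraries were *Rgs11*, *Uchl1* and *Fn1*, with Pearson's r of 0.998, 0.995 and 0.994. For *Timp3* they were *Lims1*, *Tbc1d10a* and *Pcna*, with r of 0.997, 0.994 and 0.994. These values share the genotype difference and the 6 libraries, and are given as a description among all genes that met the minimum level.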

How the data were processed

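Tail tendon RNA was sequenced as 6 libraries on the Ion Proton system. Adaptors and poor reads were trimmed by the authors, MapSplice was used for alignment to mm9, and raw counts per gene symbol were deposited. The program and annotation used for counting, and its treatment of strand, are not given in the sources used here. Each of the 6 columns carried the name of 1 sample.

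The counts were analysed as deposited. CPM were normalized and fold changes fitted by edgeR 4.0.16, run in R 4.3.3 (TMM, filterByExpr, glmQLFit on genotype, prior count 0.125, Benjamini-Hochberg adjustment over 14550 genes). Standard errors are the log2 fold change divided by the square root of the F statistic. DESeq2 1.42.0, as in the study, was an alternative. Scripts were tested on simulated data. Ratios used a pseudocount of 0.5 counts. The alternatives were RLE, upper-quartile and library-size scaling, a pair of count filters, a robust fit, a replicate block and each library left out. Depth was 10835070 to 14160301 counts per library, and intervals on counts cover counting error only. Replicate libraries differed beyond sampling noise (chi-square per degree of freedom 7.59 to 36.4). The labels do not say how many mice gave each library, so p-values measure the spread between these samples.

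The members and lists were chosen with earlier results of these data known. The rule for naming took all members, the other Mmp and Timp genes, at most the 5 smallest p among passing genes of each list (otherwise the 2 most abundant), *Mkx*, and the 3 genes most like each passing member with a mean of at least 5 CPM. Markers, *Ddx3y*, *Sparc*, *Furin*, *Pcsk7*, *Lrp1* and *Reck* were named after their values were seen. Promoter sequences are those of RefSeq on GRCm38.p6, and 7 of 10 members matched. A further list of genes is not reported here.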

Additional observations from a re-analysis of the deposited data

How the results depend on the processing

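*Mmp2* rose under all 14 alternatives, with log2 fold changes of 1.04 to 1.37 and adjusted p from 1.61e-13 to 0.0309. *Timp3* stayed past the threshold in 9 of 14, and the adjusted p ran from 0.000898 to 0.124. The deviations of libraries with the same replicate number from their group means correlated at 0.026, -0.21 and 0.30. Those of libraries with unlike numbers ran from -0.39 to 0.40. With 3 libraries per group, these values cannot tell whether the numbers mark pairs. With the replicate block, 1 member rose (*Mmp2*), the adjusted p was 0.0662 for *Timp3*, 0.0587 for *Pcsk6*, 0.0532 for *Thbs2* and 0.0478 for *Mmp15*, and 264 genes were higher and 170 lower over all genes. Leaving out 1 library at a time, 1 to 3 members rose and 0 fell, and the counts over all genes ran from 117 to 539 higher and from 127 to 439 lower. Without a filter on low counts (1 count in any library) 970 genes were higher and 594 lower, and DESeq2 gave 763 and 559. Scaling by library size alone raised the median log2 fold change of all genes from -0.0037 to 0.25, and with it *Timp1* had 0.072 and *Mmp28* 0.052, both reversed. Leaving out 1 library at a time, *Mmp28* ran from -0.36 to 0.088 (positive without WT replicate 1) and *Timp2* from -0.11 to 0.19 (-0.065, -0.11 and -0.070 without WT replicate 2, WT replicate 3 and Mkx-/- replicate 2). The log2 difference of *Mmp14*/*Timp2* ran from -0.0070 (without WT replicate 1) to 0.39, and that of *Mmp13*/*Timp1* from -0.99 to 0.094 (without Mkx-/- replicate 1). With the length of the longest transcript, the shares in the summed level were 0.940% for *Mmp11* in Mkx-/-, 0.109% and 0.146% for *Mmp16*, and 3.37% and 4.61% for *Timp3* in WT and Mkx-/- tendons. These moved because the longest transcript is shorter than the merged exons. The cause of the other changes was not tested. Counts of 4 to 20 per library limit *Mmp13*.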
